A study of Mus musculus with 30 samples.

Results

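Olfactory receptor genes (symbols beginning with Olfr) were located against the replication initiation zones of mouse embryonic stem cells. They numbered 1103 of the 20558 protein-coding genes on chromosomes 1 to 19, lay on 16 chromosomes, and were chosen by symbol from the RefSeq gene table of GRCm38.p6, the patched form of mm10. Genes with under 500 kb between the end of one and the start of the next were joined, which gave 43 clusters of 2 or more genes with 1094 members and 9 single genes. The family was taken up because its distances to zones were already known to be large, so those distances are given as a description and no test was made on them.

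Odorant receptors are G protein-coupled receptors of the olfactory epithelium and form the largest gene family of the mouse. Each olfactory sensory neuron transcribes a single receptor gene from a single allele, while the rest of the family, like the whole family in most other cells, is held silent in compact chromatin. Class I receptors, which resemble those of fish, sit together on chromosome 7, and class II receptors are spread over many clusters. OK-seq sequences Okazaki fragments, the short pieces of the lagging strand; where the direction of forks read from them turns from mostly leftward to mostly rightward, replication has started, and the turning point is the breakpoint of an initiation zone.

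The series followed old and new histones onto the sister chromatids behind the replication fork in wild-type cells and in clones with a mutation in the histone-binding part of MCM2, a subunit of the replicative helicase. Of its 30 samples, 1 was used here and 29 were not analysed here. That sample was wild-type E14TG2a, an established embryonic stem cell line, grown with leukaemia inhibitory factor and inhibitors of GSK3 and MEK and labelled with 10 µM of the nucleoside EdU for 2 min before OK-seq. The deposited list held 2844 zones, each with a breakpoint bin of 1 kb and a left and right edge at most 100 kb away. A single library gives no replicate error, its depth is unstated in the sources used here, and the intervals below (all 95%) cover counting error only. The list holds positions and no expression values, so the labelled cell type was not checked against markers.

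Few receptor genes reached a zone, and those that did included one whose body held the breakpoint itself, Olfr820 on chromosome 10. Of the 6 receptor genes nearest to a breakpoint, 4 had a promoter entry, and their 250 bases before the annotated start are shown. Nearness was taken from the closer gene end, so the promoter of a receptor gene not shown can lie closer to its breakpoint. They are from RefSeq, build GRCm38.p6, written 5′ to 3′ on the gene's strand. The windows are chr10:130017113-130017362 (plus strand) for Olfr820, chr9:38401461-38401710 (plus) for Olfr147, chr9:19584261-19584510 (plus) for Olfr855 and chr7:108212528-108212777 (minus) for Olfr487. Capitals mark, on either strand, TAATTG and TAATGA (core letters of homeodomain sites such as those bound by Lhx2), CCCNNGGG (the core of Ebf sites) and TATAAA.
Olfr820: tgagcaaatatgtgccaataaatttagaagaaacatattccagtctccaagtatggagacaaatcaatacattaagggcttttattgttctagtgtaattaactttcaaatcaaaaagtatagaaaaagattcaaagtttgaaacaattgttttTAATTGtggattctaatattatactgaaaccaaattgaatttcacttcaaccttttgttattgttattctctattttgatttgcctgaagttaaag
Olfr147: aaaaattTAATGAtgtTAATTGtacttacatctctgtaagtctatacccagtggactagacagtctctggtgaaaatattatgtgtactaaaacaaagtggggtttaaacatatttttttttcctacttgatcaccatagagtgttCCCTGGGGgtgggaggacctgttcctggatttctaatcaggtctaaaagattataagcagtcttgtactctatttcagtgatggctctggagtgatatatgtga
Olfr855: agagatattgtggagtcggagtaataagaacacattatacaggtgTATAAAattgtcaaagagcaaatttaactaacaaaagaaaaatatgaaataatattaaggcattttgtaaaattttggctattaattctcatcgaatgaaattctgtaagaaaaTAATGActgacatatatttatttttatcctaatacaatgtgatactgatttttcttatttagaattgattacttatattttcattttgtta
Olfr487: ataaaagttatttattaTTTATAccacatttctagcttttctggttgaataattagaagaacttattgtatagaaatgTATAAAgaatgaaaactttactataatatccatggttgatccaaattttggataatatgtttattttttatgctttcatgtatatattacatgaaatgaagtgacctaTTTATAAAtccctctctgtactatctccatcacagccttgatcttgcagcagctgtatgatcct

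All 4 windows were rich in A and T. Their GC content was 26.8% in Olfr820, 36.4% in Olfr147, 23.2% in Olfr855 and 27.6% in Olfr487, and 3 of them held no CpG. Olfr147 had both homeodomain cores 3 bases apart and an Ebf core, Olfr820 had TAATTG only, Olfr855 had TAATGA and TATAAA, and Olfr487 had 4 matches to TATAAA, of which 2 overlapped. A match is a run of letters and was not examined as a binding site. Many receptor models hold only the coding part (78.6% had a length that is a multiple of 3, against 34.4% of other coding genes), so the annotated start can be the start of the coding sequence.

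Receptor genes as a family lay outside zones. An end inside a zone was found for 49 of 1103 (4.44%, Wilson interval 3.38 to 5.82%), where 32.4% of all protein-coding genes had one. Wholly inside a zone were 44, against 18.7% of all protein-coding genes. With 20 kb allowed on each side the count was 76 (6.89%, 5.54 to 8.54%), beside 38.9% of all protein-coding genes. A breakpoint fell in the body of 1 of the 1103 receptor genes, Olfr820, beside 4.2% of all protein-coding genes. These counts were not adjusted for gene length. The median model was 951 bp in receptor genes and 17578.5 bp in all protein-coding genes, and a longer body has more room for a breakpoint.

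The median receptor gene was 323.7 kb from the nearest zone (302.9 to 350.5 kb, from order statistics); the lower quartile was 144.0 kb, the upper 574.2 kb and the maximum 1273 kb. Other protein-coding genes had a median of 61.2 kb. More than 500 kb from any zone lay 340 receptor genes (30.8%), where the share over all protein-coding genes was 10.8%. The long distances were therefore common in the family, and the plot of cumulative distance shows no break between near and far receptor genes.

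**Figure D1:**
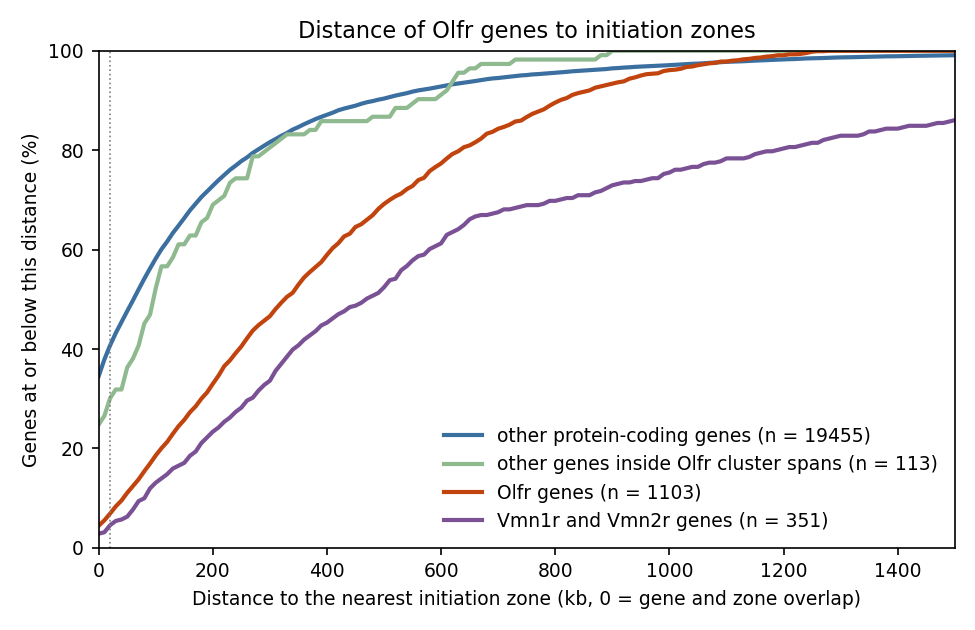
Cumulative share of genes (vertical axis, %) against the distance to the nearest initiation zone (horizontal axis, kb; 0 means that gene and zone overlap) for 1103 Olfr genes, 351 Vmn1r and Vmn2r genes, 113 other protein-coding genes inside Olfr cluster spans and 19455 other protein-coding genes; the dotted line is at 20 kb. The Olfr curve passes its median at 323.7 kb, right of the other protein-coding genes (61.2 kb) and left of the vomeronasal receptor genes (469.6 kb).

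Receptor genes are short, with a median model of 951 bp against 19260 bp for other coding genes. With each gene reduced to its midpoint, 4.08% of receptor genes and 22.5% of all protein-coding genes were inside a zone, and 6.89% against 29.9% were within 20 kb. Receptor models of 1100 bp or more gave 14 of 205 within 20 kb (6.83%), and shorter models gave 62 of 898 (6.90%).

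The most similar families differed among themselves. Vomeronasal receptor genes (Vmn1r and Vmn2r), the pheromone receptors, had 10 of 351 with an end in a zone (2.85%) and a median of 469.6 kb. Trace amine receptor genes (Taar), a small class of olfactory receptors of another family in 1 group of 15 genes, had none in a zone, 2 within 20 kb and a median of 51.5 kb. Olfr pseudogenes and records of other kinds, 316 in number, had 12 in a zone and 19 within 20 kb (6.01%), with a median of 421.6 kb, and the interval of the last share (3.88 to 9.20%) includes that of the coding receptor genes (6.89%).

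Within the family, the class I genes were taken as the 126 members of the chromosome 7 cluster from Olfr543 to Olfr692, which is known to hold them. Of these, 2 had an end in a zone and no further member was within 20 kb (1.59%, 0.436 to 5.60%), and their median distance was 443.0 kb. Among the 977 other genes 74 were within 20 kb (7.57%, 6.08 to 9.40%), with a median of 304.9 kb. The class I values come from 1 cluster with 1 zone, so its genes are not replicates of their class and the difference was not tested. The 9 single genes had no end within 20 kb and a median of 149.0 kb.

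Clusters were sharply bounded by the joining rule. The widest gaps that it joined were 313.0 kb (Olfr221 to Olfr1513), 326.0 kb (Olfr749 to Olfr750) and 362.7 kb (Olfr649 to Olfr651), and the narrowest that it kept apart were 666.3 kb (Olfr716 to Olfr467), 687.8 kb (Olfr459 to Olfr458) and 728.7 kb (Olfr311 to Olfr222). No gap lay between 362.7 and 666.3 kb, around the limit of 500 kb, and the median gap between neighbours was 19.1 kb. Cluster size ran from 2 to 222 genes with a median of 12, and span from 26.0 to 5071 kb with a median of 407.7 kb. The 16 clusters of 20 or more genes held 901 of the receptor genes, and chromosomes 2 and 7 held 287 and 239.

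Inside cluster spans zones were sparse, although genes were dense. The 43 spans covered 30.2 Mb and held 39.9 protein-coding genes per Mb, against 8.56 per Mb over chromosomes 1 to 19. Their 16 breakpoints gave 0.529 per Mb (exact Poisson interval 0.303 to 0.859), where the chromosomes as a whole had 1.18 per Mb (1.14 to 1.23). Zones covered 7.11% of the spans and 12.98% of the chromosomes.

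A breakpoint was present in 12 clusters and absent from 31. Of the 16 large clusters, 9 had one and 7 had none. No zone at all touched 28 clusters, which together held 308 receptor genes. Spans that contained only receptor genes made up 5.66 Mb in 20 clusters and had 1 breakpoint (0.177 per Mb, 0.004 to 0.985), in the Olfr467 to Olfr519 cluster. The 23 spans that also contained other genes made up 24.6 Mb and had 15 breakpoints (0.610 per Mb, 0.342 to 1.01), and these intervals overlap.

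The map of the large clusters shows how breakpoints fell among the receptor genes. In the largest, from Olfr987 to Olfr1274 on chromosome 2, 222 genes spread over 5071 kb with 3 breakpoints, the first of them 2172 kb from the left end; the zone-free run before it was 2566 kb long and held 96 receptor genes. Lrrc55, the nearest other coding gene on the left, was 132.2 kb away, and Ptprj, a receptor tyrosine phosphatase, was 28.1 kb away on the right. Farther along that chromosome Olfr1275 to Olfr1318 had no zone: all 37 genes lay in a zone-free run of 2413 kb, and its nearest neighbours were A26c3 at 1.25 kb and Gm52523 at 71.8 kb.

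**Figure D2:**
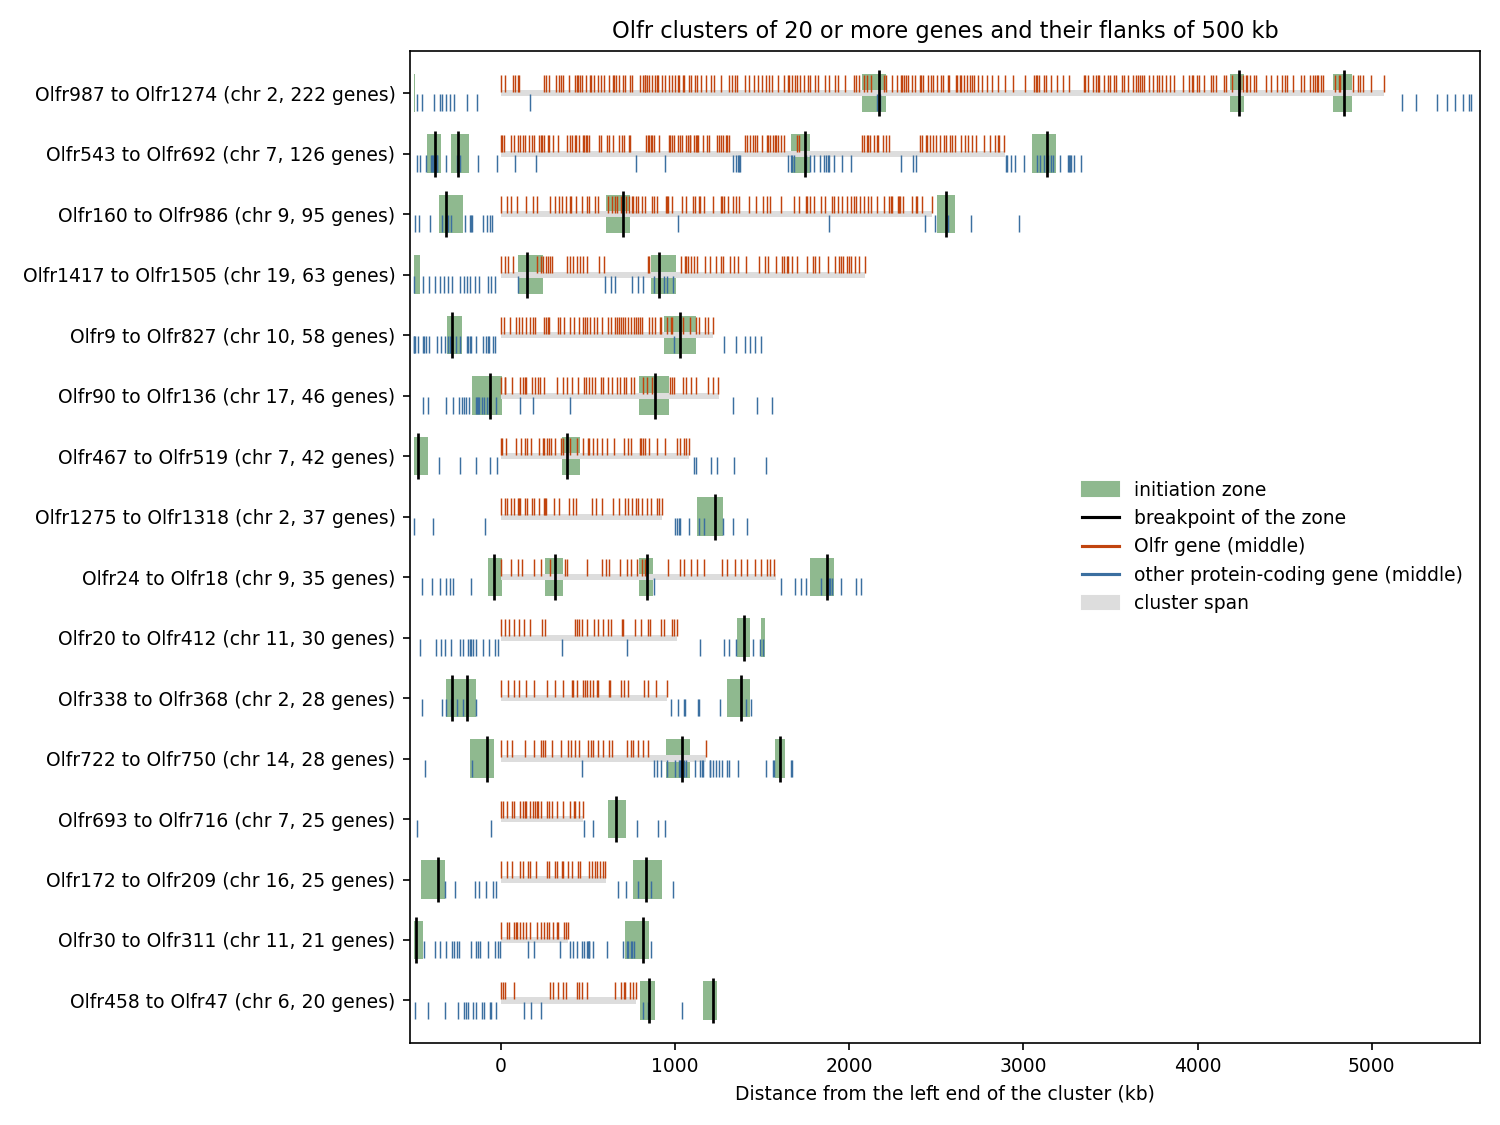
Maps of the 16 Olfr clusters of 20 or more genes, drawn from the left end of each span with flanks of 500 kb (horizontal axis, kb), with 1 row per cluster, zones as green boxes, breakpoints as black lines, and the middle of each Olfr gene (orange) and other protein-coding gene (blue) as ticks. Breakpoints lie inside 9 of the 16 spans, and 7 spans, such as Olfr1275 to Olfr1318, hold none.

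On chromosome 7 the class I cluster, Olfr543 to Olfr692, had 1 breakpoint in 2893 kb, and 89 of its 126 genes lay in a zone-free run of 1847 kb. It was bordered closely by Rrm1, the large subunit of ribonucleotide reductase (7.0 kb), and Fam160a2 (1.89 kb). The Olfr467 to Olfr519 cluster of 42 genes had 1 breakpoint and ran from Ovch2 (13.4 kb outside) to Nlrp10 (27.4 kb outside). The 25 genes from Olfr693 to Olfr716, between Gm1966 (32.9 kb) and Rbmxl2 (61.1 kb), had none. A smaller cluster of 15 genes, Olfr310 to Olfr292, lay wholly in a run of 2582 kb without a zone.

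Chromosome 9 carried 95 genes from Olfr160 to Olfr986, between Panx3 (42.1 kb) and Zfp202 (4.22 kb), with 1 breakpoint and a zone-free run of 1763 kb that held 68 of them. Its other large cluster, Olfr24 to Olfr18, lay between the mucin gene Muc16 (79.9 kb) and Zfp560 (9.04 kb) and had 2 breakpoints among 35 genes, with a median distance of only 149.3 kb from gene to zone. The chromosome 19 cluster, Olfr1417 to Olfr1505, between Stx3 (6.51 kb) and Tle4 (528.1 kb), also had 2 breakpoints, and 41 of its 63 genes lay in a run of 1730 kb that went on toward Tle4. On chromosome 10, Olfr9 to Olfr827, between Mettl7b (28.9 kb) and Neurod4 (57.0 kb), had 1 breakpoint and 47 of its 58 genes in a run of 1156 kb.

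The remaining large clusters split in the same manner. Olfr90 to Olfr136 on chromosome 17, next to the MHC genes, lay between Gabbr1 (10.9 kb), a GABA receptor subunit, and Esp36 (80.4 kb) and had 1 breakpoint among 46 genes. Olfr722 to Olfr750 on chromosome 14, between Armh4 (110.8 kb) and Rnase4 (19.6 kb), had 1 breakpoint, but 27 of its 28 genes lay together in a zone-free run of 989 kb. No breakpoint was inside Olfr20 to Olfr412 (30 genes, between Spata22 at 4.27 kb and Rap1gap2 at 17.7 kb) or Olfr338 to Olfr368 (28 genes, between Ptgs1 at 118.2 kb and Pdcl at 17.3 kb). The same held for Olfr172 to Olfr209 (25 genes, between Cldnd1 at 25.9 kb and Gabrr3 at 45.1 kb), Olfr30 to Olfr311 (21 genes, between Lypd9 at 1.95 kb and Gm12258 at 5.12 kb) and Olfr458 to Olfr47 (20 genes, between the bitter taste receptor gene Tas2r126 at 24.6 kb and Arhgef5 at 29.1 kb).

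At the cluster edges the breakpoint density changed. The 100 kb just inside the ends held 1 breakpoint in 6.91 Mb (0.145 per Mb, 0.004 to 0.806), and the 100 kb just outside held 14 in 8.60 Mb (1.63 per Mb, 0.890 to 2.73). Deeper inside, the rate was 0.859 per Mb at 100 to 250 kb, 0.464 at 250 to 500 kb and 0.609 beyond 500 kb. Farther outside it was 1.78 per Mb at 100 to 250 kb, 1.76 at 250 to 500 kb, 1.48 at 500 to 1000 kb and 1.43 at 1000 to 2000 kb. Over all clusters every outside class was above every inside class and above the 1.18 per Mb of the chromosomes, the intervals within each side overlap, and those of the 2 classes that meet at the cluster end do not. In the 16 large clusters alone the picture was less clear: those 2 classes had 0 in 3.20 Mb (up to 1.15 per Mb) and 1.56 per Mb (0.507 to 3.65), whose intervals overlap, and the class at 100 to 250 kb outside had 1.04 per Mb, below the rate of the chromosomes.

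**Figure D3:**
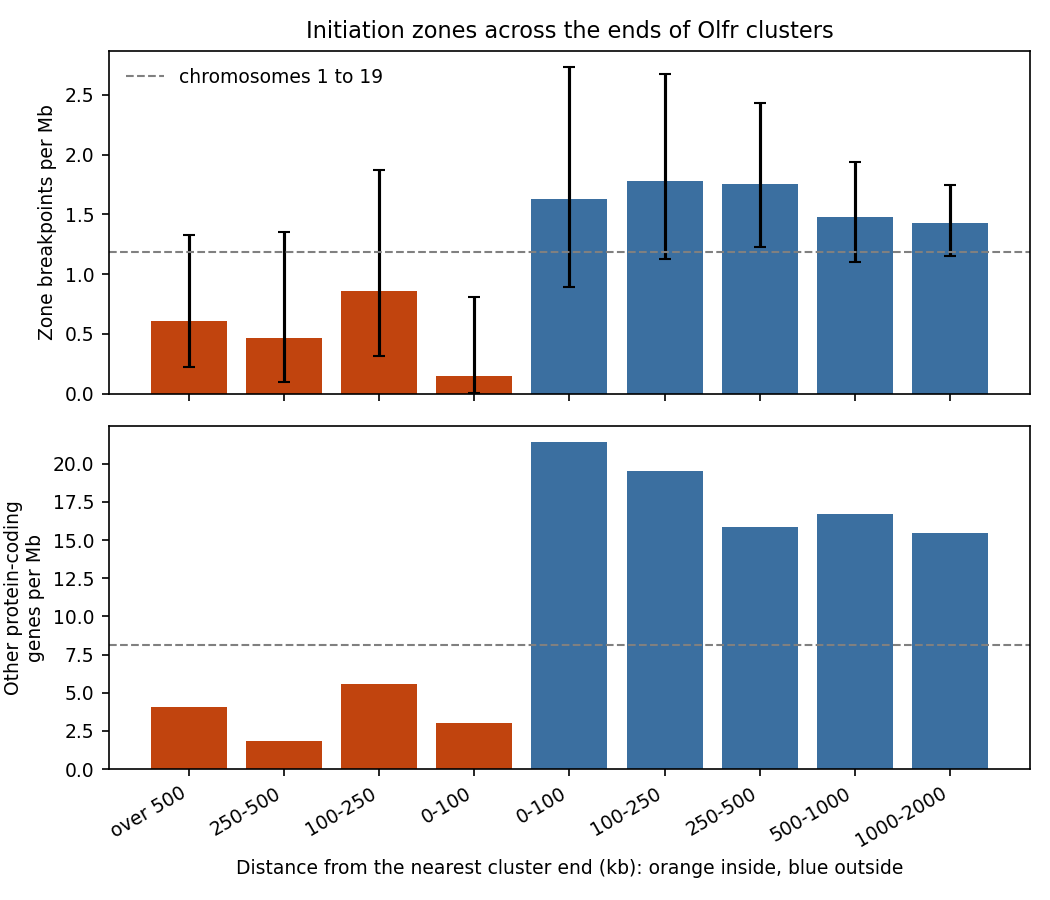
Zone breakpoints per Mb (top, with exact Poisson 95% intervals) and other protein-coding genes per Mb (bottom) by distance from the nearest end of an Olfr cluster (horizontal axis, kb; orange inside, blue outside), with the rates over chromosomes 1 to 19 as dashed lines. Both rates step at the cluster end: breakpoints from 0.145 to 1.63 per Mb and other genes from 3.04 to 21.4 per Mb.

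Other protein-coding genes stepped at the same place. They numbered 3.04 per Mb in the 100 kb just inside the ends and 21.4 per Mb in the 100 kb just outside. Their part in the step of breakpoints was not tested. Within 500 kb of the ends, stopping at the next receptor gene, 42.0 Mb held 73 breakpoints (1.74 per Mb, 1.36 to 2.18), zones covered 18.2%, and there were 18.1 other genes per Mb. Vomeronasal receptor clusters had 0.379 breakpoints per Mb inside (0.173 to 0.720) and 1.34 in their flanks (0.882 to 1.95), a step of the same direction.

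Measured outward from each end, the nearest breakpoint was at a median of 310.5 kb (242.5 to 434.3 kb) over 84 ends, with a range from 21.9 to 8059 kb. It was within 100 kb at 13 ends, within 250 kb at 34 and within 500 kb at 57 (67.9%). The longest stretch lay to the right of Olfr1344 to Olfr1350 on chromosome 7, where 8059 kb passed without a breakpoint. Another 2 ends, the right end of Olfr9 to Olfr827 and the left end of Olfr161 to Olfr15 on chromosome 16, had no breakpoint between them and the chromosome end.

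Over all clusters, genes near a cluster end and genes in the interior had similar shares close to a zone. Within 100 kb of an end, 20 of 284 receptor genes were within 20 kb of a zone (7.04%, 4.60 to 10.6%), and deeper inside 56 of 810 were (6.91%, 5.36 to 8.87%). The median distance was nevertheless shorter in the outer genes, 218.6 kb (192.1 to 247.3 kb) against 384.2 kb (355.8 to 405.2 kb). Cluster size differed between these groups: clusters of 20 or more genes held 139 of the outer and 762 of the inner genes. In them 6 outer genes (4.32%, 1.99 to 9.10%) and 54 inner genes (7.09%, 5.47 to 9.13%) were within 20 kb of a zone. The median distances there were 262.35 kb and 397.3 kb. By depth, the median distance was 188.5 kb in the outermost 50 kb, 343.7 kb at 100 to 250 kb and 439.6 kb at 250 to 500 kb. It was 314.2 kb at 500 to 1000 kb and 441.9 kb beyond 1000 kb, so it did not increase steadily inward. Genes of large clusters had a median of 373.9 kb and those of clusters of 2 to 19 genes a median of 174.5 kb.

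Zones inside clusters were placed both where receptor genes were the only coding genes and at other coding genes. In all, 21 zones touched a span: 16 with the breakpoint inside and 5 with the breakpoint 21.9 to 63.7 kb outside an end. The 5 zones at ends held 9 receptor genes: Olfr414 and Olfr220, Olfr24, Olfr1351 and Olfr57, Olfr288 and Olfr287, and Olfr90 and Olfr91. Counting protein-coding genes only, 6 of the 16 contained ends of receptor genes alone, 20 receptor genes in total. Ends of both kinds lay in 7, and only other genes had ends in 3. Records of other types were not counted here, and some of the 6 zones held them. The coding gene with the end nearest to the breakpoint was a receptor gene in 8 and another gene in 8. Only 1 of the 16 breakpoints was within 100 kb of a cluster end (92.3 kb), and the median depth was 339.2 kb, up to 2172 kb.

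The 6 zones whose coding genes were all receptor genes were on chromosomes 2, 7, 9 and 17. On chromosome 2 the zone chr2:89517001-89599000 held Olfr1243, Olfr1245 and Olfr1246, with the end of Olfr1245 at 4.21 kb from the breakpoint and the nearest other coding gene, Ptprj, 859.3 kb away. In the same cluster chr2:90109001-90217000 held Olfr1269, Olfr32 and Olfr1270, the last at 20.5 kb. On chromosome 9 chr9:38316001-38455000 held 7 receptor genes, Olfr25, Olfr898, Olfr250, Olfr251, Olfr147, Olfr901 and Olfr902, with Olfr147, whose promoter window is printed above, at 8.67 kb. These zones had no other coding gene within 250 kb of the breakpoint.

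The other 3 held 1 or 3 receptor genes each. On chromosome 7 chr7:108166001-108269000 held Olfr486, Olfr487 and Olfr488, with Olfr487 at 15.1 kb. On chromosome 9 chr9:19009001-19114000 held Olfr835 alone, at 29.4 kb. On chromosome 17 chr17:37880001-38051000 held Olfr127, Olfr128 and Olfr761, with Olfr761 at 15.5 kb and the nearest other gene, Esp36, 448.0 kb away.

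**Figure D4:**
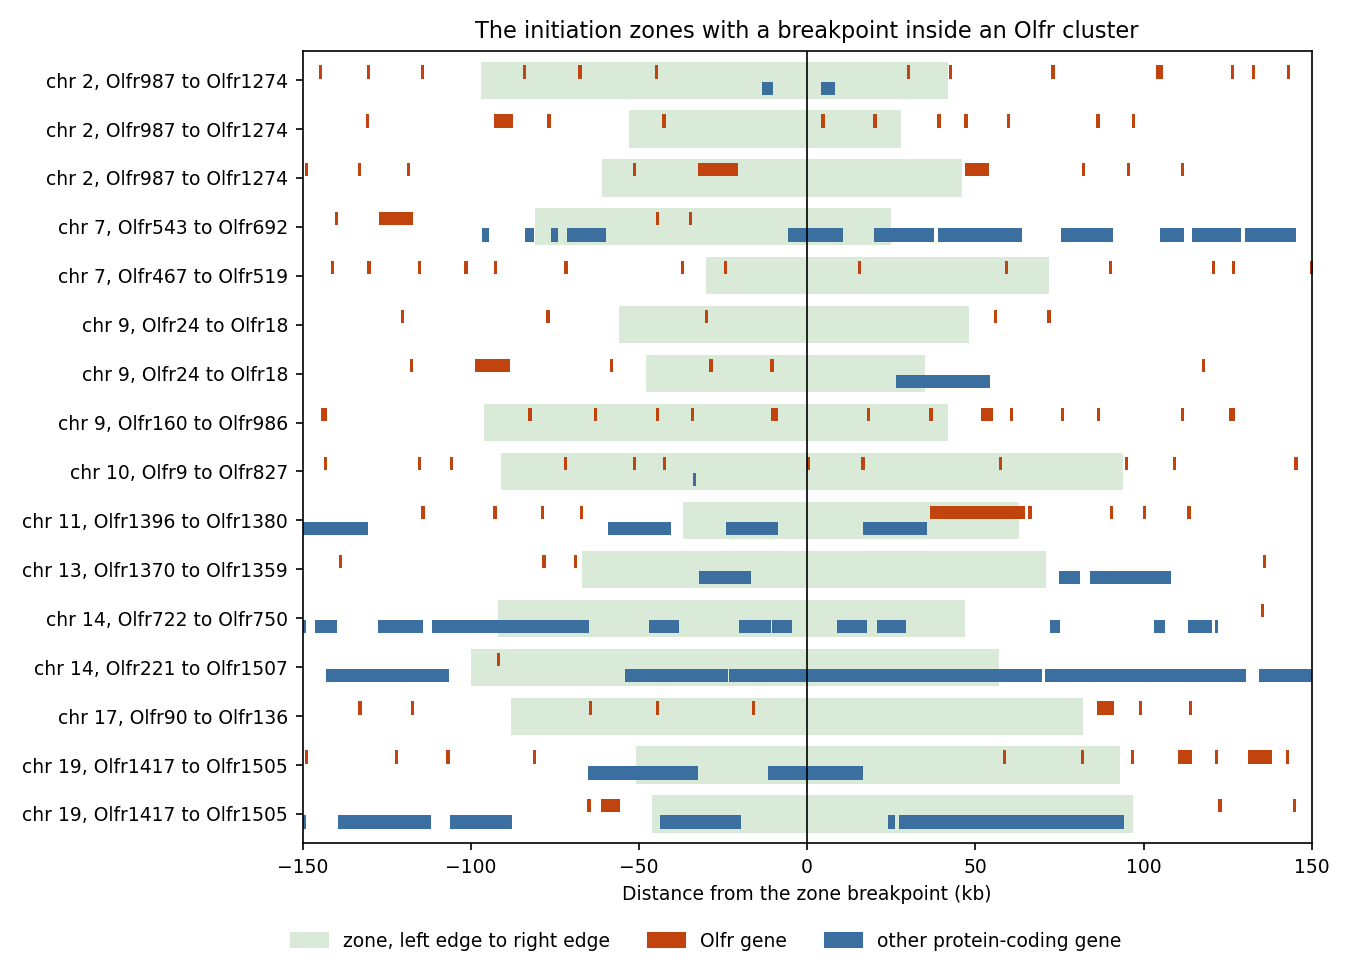
The 16 zones with a breakpoint inside an Olfr cluster, 1 row each, aligned at the breakpoint (horizontal axis, kb from the breakpoint), with the zone from left to right edge in green and the bodies of Olfr genes (orange) and other protein-coding genes (blue). In 6 of the zones the only protein-coding genes with an end are receptor genes, and in 3 zones only other protein-coding genes have an end.

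The 7 zones with both kinds of gene differed in which lay nearest the breakpoint. The zone of Olfr820, chr10:129926001-130112000, was the widest of the 21 at 185 kb and held 7 receptor genes (Olfr818, Olfr819, Olfr247, Olfr820, Olfr821, Olfr822 and Olfr823) and the predicted gene Gm10310. Its breakpoint bin lay over the start of Olfr820, whose end was 0.138 kb from the middle of the bin, and Gm10310 was 33.1 kb away. In the zone chr9:19547001-19631000, Olfr855 was nearest at 10.0 kb and Zfp317, a zinc finger gene, was at 26.5 kb. In the other 5 mixed zones the nearest gene was not a receptor gene.

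In the largest cluster chr2:87405001-87545000 held 5 receptor genes around Pramel7 and Pramel6, members of the PRAME family known from early embryos, and Pramel6 was 4.06 kb from the breakpoint against 29.5 kb for Olfr153. The only zone of the class I cluster, chr7:104143001-104250000, held Olfr648 and Olfr649 beside other genes, among them Olfm5, Trim6 and Trim34a. Trim6, a ubiquitin ligase of an antiviral gene group, contained that breakpoint, and Olfr649 was 34.3 kb away. Zfp62, a zinc finger gene, was nearest in the Olfr1396 to Olfr1380 cluster of chromosome 11 (8.68 kb), Rpgrip1, a gene of the photoreceptor cilium, in the Olfr221 to Olfr1507 cluster of chromosome 14 (23.3 kb), and Osbp, the oxysterol-binding protein gene, in the chromosome 19 cluster (11.7 kb). The bodies of Rpgrip1 and Osbp also contained the breakpoint. The zone at Osbp held tRNA genes as well.

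The 3 zones without a receptor gene end held ends of other genes. On chromosome 14 chr14:50843001-50983000 held 7 such genes, among them Apex1, an endonuclease of base excision repair, and Pip4p1, whose end was 4.49 kb from the breakpoint; the nearest receptor gene, Olfr750, was 134.8 kb away. On chromosome 19 chr19:12693001-12837000 held Keg1, Cntf, Zfp91 and Lpxn, with Keg1 at 19.6 kb and Olfr1443 at 55.6 kb (9.15 kb from the zone edge). On chromosome 13 chr13:21144001-21283000 held a single coding gene, Trim27, a ubiquitin ligase gene, at 16.8 kb, and many tRNA genes. Olfr1368 was 68.4 kb from that breakpoint but only 0.946 kb from the zone edge.

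Other protein-coding genes that overlapped the spans were closer to zones than the receptor genes around them. Of 113 such genes, 28 had an end in a zone (24.8%, 17.7 to 33.5%) and 34 were within 20 kb (30.1%, 22.4 to 39.1%), with a median distance of 95.1 kb (67.1 to 137.0 kb). The 877 receptor genes of the 23 clusters that hold them had 46 with an end in a zone (5.25%, 3.96 to 6.93%) and 70 within 20 kb (7.98%, 6.37 to 9.96%), with a median of 323.0 kb. Both shares of the other genes were below those of all protein-coding genes (32.4 and 38.9%), although the upper bounds of their intervals reached them.

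Zones at clusters were described by width and spacing. The median width of the 21 that touched a span was 138 kb (104 to 143 kb, range 78 to 185 kb), and that of all 2844 zones was 112 kb (110 to 113 kb), inside the interval of the 21. For the 16 with the breakpoint inside, the next breakpoint was a median of 690 kb away, from 350 to 2067 kb, against 359 kb for all zones. An arm at the limit of 100 kb was present in 2 of the 21 (9.52%) and in 9.56% of all zones.

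The receptor genes nearest to a breakpoint came from 7 clusters and 8 zones. After Olfr820 (0.138 kb) they were Olfr1245 (4.21 kb), Olfr147 (8.67 kb), Olfr855 (10.0 kb), Olfr487 (15.1 kb) and Olfr761 (15.5 kb). Next were Olfr821 (16.1 kb), Olfr901 (17.8 kb), Olfr1246 (19.6 kb), Olfr1270 and Olfr32 (both 20.5 kb) and Olfr220 (21.9 kb), the last gene of its cluster on chromosome 1. All 12 were wholly inside their zones, and several share one: Olfr820 with Olfr821, Olfr147 with Olfr901, Olfr1245 with Olfr1246, and Olfr32 with Olfr1270, whose models overlap.

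At the other extreme, with 1 gene per cluster, were Olfr1039 on chromosome 2 (1273 kb from a zone), Olfr1275 on chromosome 2 (1127 kb), Olfr292 on chromosome 7 (1045 kb), Olfr389 on chromosome 11 (928.4 kb) and Olfr594 on chromosome 7 (922.3 kb). Olfr1275 was the first gene of its cluster and Olfr292 the last of its own, so the most distant genes were not all deep inside.

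Direction of transcription showed no lean away from the breakpoint. Genes whose body holds the breakpoint were left out, among receptor genes Olfr820 alone. Of the other 40 receptor genes with a strand in the promoter table and an end in a zone, 17 pointed away from the breakpoint and 23 toward it (42.5% away, 28.5 to 57.8%). Where the breakpoint was inside the span the split was 17 and 17 (50% away, 34.1 to 65.9%). Among 4673 other protein-coding genes with an end in a zone, taken in the same way, 60.1% (58.7 to 61.5%) pointed away. That share is above the interval of the 40 receptor genes but inside that of the 34 with the breakpoint in the span. Neighbouring receptor genes share a zone and often a strand, so the counts are not independent.

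Receptor promoters were poor in GC whether or not they reached a zone. A promoter entry of 300 bases, 250 before and 50 after the start, was matched for 938 of 1103 receptor genes. As said above, the annotated start of a receptor gene can be that of its coding sequence. Such windows are then not of the same kind as those of other genes, here and in the motif shares below. Median GC content was 35.7% in the 41 with an end in a zone and 35.0% in the 897 without, where other protein-coding genes had 60.3% in and 55.7% out of zones. No CpG was present in 33.7% of receptor promoters and in 3.22% of the others. Vomeronasal receptor promoters were also poor in GC, with a median of 36.7% and no CpG in 23.9%. Other genes inside the cluster spans had a median of 48.7%.

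Within classes of promoter GC content the share near a zone was lower in receptor genes than in other genes, vomeronasal and trace amine receptor genes left out. The low share was not particular to Olfr genes. Vomeronasal receptor genes had 12 of 266 near below 40% GC (4.51%, 2.60 to 7.72%). At 40 to 50% they had 3 of 52 (5.77%, 1.98 to 15.6%), and at 50 to 60% 1 of only 3. Below 40% GC, 43 of 711 receptor genes were within 20 kb (6.05%, 4.52 to 8.05%), against 104 of 605 others (17.2%, 14.4 to 20.4%). At 40 to 50% the counts were 17 of 201 (8.46%, 5.35 to 13.1%) and 788 of 2889 (27.3%, 25.7 to 28.9%). At 50 to 60% only 25 receptor genes were left, 3 of them near (12%, 4.17 to 30.0%), against 2117 of 5129 others (41.3%). The intervals of receptor genes and these other genes did not overlap in any of the 3 classes. Neighbouring receptor genes share zones, so their counts are not independent and the intervals are too narrow. The family was chosen with its distances known, and no test was made.

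**Figure D5:**
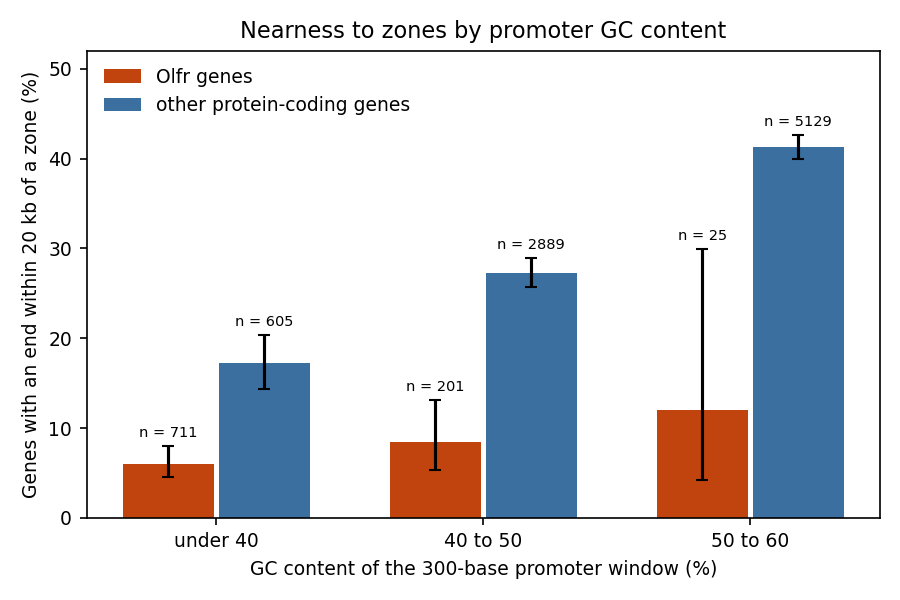
Genes reaching to 20 kb or less of a zone (vertical axis, % of genes, with Wilson 95% intervals) by GC content of the 300-base promoter window (horizontal axis) for Olfr genes (orange) and other protein-coding genes without vomeronasal and trace amine receptor genes (blue), with the number of genes above each bar. In the class under 40% the shares were 6.05% and 17.2%.

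The homeodomain cores were frequent throughout the family. TAATTG occurred in 23.2% of receptor promoters and TAATGA in 28.8%, against 8.15 and 9.99% of all 27025 promoters of the table, searched on both strands with overlapping matches counted. Either one was present in 13 of the 41 with an end in a zone (31.7%) and in 402 of the other 897 (44.8%). TATAAA was found in 41.2% of receptor promoters against 14.2% of all, and CCCNNGGG, which is rich in G and C, in 3.09% against 13.4%. Vomeronasal receptor promoters had TATAAA in 35.4%, TAATGA in 20.5%, TAATTG in 13.4% and CCCNNGGG in 7.14%. Base composition differs between these sets, and its part in the motif shares was not tested.

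Sequence shared between genes bears on the mapping of reads. A promoter that shared any run of 36 bases with another promoter was found in 22.1% of receptor genes, in 26.8% of those with an end in a zone, in 20.8% of other protein-coding genes and in 66.1% of vomeronasal receptor genes. Promoters with at least 50% of their 36-base runs shared were 2.13% of receptor promoters and 11.6% of those of other protein-coding genes. Restricted to the 731 receptor genes without a shared run, 6.70% were within 20 kb of a zone and the median distance was 332.6 kb. The handling of reads with several matches is unstated in the sources used here, and mapping within the gene bodies was not examined.

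Gene density was also set beside the breakpoints in fixed windows of 1 Mb. The 27 windows with 20 or more protein-coding genes, most of them receptor genes, had 0.815 breakpoints per Mb (0.511 to 1.23), and 11 had none (40.7%, 24.5 to 59.3%). With as many genes but a minority of receptor genes, 25 windows had 1.52 per Mb (1.08 to 2.09), and 211 windows with as many genes and no receptor gene had 2.01 per Mb (1.83 to 2.22). The 268 windows without a protein-coding gene had 0.586 per Mb (0.498 to 0.685), an interval that overlaps that of the receptor-rich windows. Over all 2375 windows the rate was 1.19 per Mb and 28.3% had no breakpoint, both inside the intervals of the receptor-rich windows.

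A list of 29 genes for odorant transduction, receptor transport and receptor choice had 13 with an end in a zone (44.8%, 28.4 to 62.5%) and 15 within 20 kb (51.7%, 34.4 to 68.6%), with a median distance of 15.2 kb (0 to 116.5 kb). Over all protein-coding genes these shares were 32.4 and 38.9% and the median 70.3 kb, all within those wide intervals. The bodies of Ebf1 and Ebf4, transcription factors of the Ebf family, contained a breakpoint. By the nearest gene end, the closest to a breakpoint were Ldb1, the cofactor that joins Lhx2-bound receptor enhancers (2.02 kb), Rtp2, a receptor transporter (6.71 kb), Kdm1a, a histone demethylase needed for receptor choice (10.7 kb), and Reep1, a receptor accessory protein (12.9 kb). Farthest from a zone were Gng13, a G protein gamma subunit (322.9 kb), Cngb1, a subunit of the cyclic nucleotide-gated channel (263.0 kb), Rtp1 (241.1 kb) and Ehmt2, a histone methyltransferase (233.5 kb). None of the 29 was more than 500 kb from a zone.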

How the data were processed

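The part of the data used was 1 OK-seq list. Its values are distances in bp (other than counts or intensities), given per the file headers: breakpoint bin, left and right edge and nearest other breakpoint of each zone in the authors' deposited list, all in steps of 1 kb. The submitters' processing notes name mm10, SAMtools, Picard 2.8.2, Bowtie, Trim Galore 0.4.2, bcl2fastq and BWA 0.7.13; their roles, the zone caller, its thresholds and the read depth are unstated in the sources used here, and the protocol in the labels describes the histone libraries. A zone ran from left to right edge. Gene positions came from the RefSeq gene table (GRCm38.p6); 333 genes on scaffolds were left out. Rows with Olfr symbols marked as pseudogene-like but typed as coding (Olfr367-ps, Olfr1532-ps1, Olfr911-ps1) were kept, as the rule takes all 1103. A cluster span ran from its first to its last gene; flanks were 500 kb, and outer genes lay within 100 kb of an end. Distances ran from either gene end to the zone.

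Shares have Wilson intervals, rates exact Poisson intervals and medians order-statistic intervals, all 95%; no test was made, since there is 1 library and the members and lists were chosen with earlier results of these data known. Genes named were receptor genes overlapping a breakpoint bin, the 12 nearest a breakpoint, the 5 farthest from a zone (1 per cluster), the end genes and outside neighbours of clusters of 20 or more genes, the gene nearest each breakpoint inside a span, and the 4 of the signalling list with an end nearest a breakpoint and the 4 farthest from a zone; other genes of the zones described, Ebf1 and Ebf4, and the clusters singled out for a long run without zones, were chosen after their values were seen. Class I meant the cluster that surrounds the globin genes. Alternatives changed the zones, the genes, the joining distance, the flank and the distance limits. Windows of 1 Mb, GC classes, shared runs of 36 bases and leaving out chromosome 7 were added after the data were seen. Python 3.11.15, NumPy 2.4.6, pandas 2.3.3, SciPy 1.17.1 and matplotlib 3.10.9 were used, and the code was tested on simulated data. Protein sequences were not used here, and 1 gene of a zone described is not reported here.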

Additional observations from a re-analysis of the deposited data

How the results depend on the processing

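Of 55 recomputed values for 11 results, 39 stayed within their interval or within 1.5 times the count and 16 moved. With only zones of the median width or more, 2.99% of receptor genes had an end inside (20.1% of all protein-coding genes) and 4.53% were within 20 kb (23.5%). Their median distance was then 609.0 kb (254.4 kb), with 0.298 breakpoints per Mb of span (0.595 over the chromosomes) and 4.81% of the span covered (8.20%), so shares and rates stayed lower and the distance longer than the background. Counting each cluster or single gene once, the median share was 0% inside and 0% within 20 kb and the median distance 223.1 kb. Limits of 5 and 50 kb gave 4.90 and 11.1% near, against 34.7 and 45.7% of all protein-coding genes. Leaving out chromosome 2 gave a median distance of 276.9 kb. The covered share of the spans was 6.21% with genes joined under 250 kb, 7.69% under 1 Mb, 7.19% with pseudogenes, 7.82% without chromosome 2 and 7.25% for clusters of 10 or more genes. These values lie close to the 7.11% of the main setting. The covered share has no interval, and each recomputed value of it was counted as moved, however small the change. Merging close zones, midpoints and leaving out chromosome 7 moved no value beyond its interval. No paired analysis was possible because 1 library has a zone list. What limits these values is that single library, whose read depth is unknown: a zone not called there counts as absent.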
